A study of Schizosaccharomyces pombe 972h- with 8 samples.

Results

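The genes described here encode the mating pheromones of fission yeast (Schizosaccharomyces pombe), their export pump and receptors, the G protein that the receptors act on, and 2 regulators. They are mfm1, mfm2, mfm3, map2, mam1, mam2, map3, gpa1, rgs1 and map1, taken as the rows of the deposited tables that carry 1 of these names, and all 10 had a row among the 4854 genes of each table. The strain was the wild type 972, of the heterothallic h- (M) mating type, grown in rich YE medium at 30 °C, with no deletion or transgene in any group. H2O2 cells were sampled 30 minutes after hydrogen peroxide was added to 0.5 mM, and control cells were sampled from the same 2 cultures just before it. The cultures were grown from independent single colonies, and each RNA was hybridised to the platforms Sp_TMA and Sp_EMA, so that each platform has 2 H2O2 and 2 control arrays and the series has 8 arrays. Sp_TMA is a probe grouping of a tiling array whose labelled target kept the polarity of the RNA. Sp_EMA is a probe grouping of an expression array whose target was double-stranded and does not separate the strands. The values are log2 values per gene made with RMA, so that a difference of 1 is a 2-fold change, and each platform was normalised alone, so levels are not set across platforms.

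Fission yeast cells of opposite mating type find each other with diffusible peptides. M cells make M-factor, a short farnesylated peptide cut from the precursors Mfm1, Mfm2 and Mfm3 and pumped out by the ABC transporter Mam1, and P cells sense it with the receptor Map3. P cells make P-factor, cut from the repeated precursor Map2, and M cells sense it with the receptor Mam2. Both receptors span the membrane and act through the same G protein alpha subunit, Gpa1, which passes the signal to a MAP kinase cascade, while Rgs1 returns Gpa1 to its inactive state. Transcription of the system rises on nitrogen starvation under the HMG-box factor Ste11, and the MADS-box factor Map1 drives the genes particular to P cells. The study developed a protocol to measure strand-specific expression changes with tiling arrays, also for transcripts without annotation. It compared the 2 platforms on the response of annotated genes to oxidative stress.

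The transcripts of gpa1 and rgs1 fell after H2O2 by more than 2-fold on both platforms, and that of the receptor gene map3 fell on both, by 2.21-fold on Sp_TMA and 1.46-fold on Sp_EMA. Those of mfm3 and map1 rose on both, by 2.45-fold and 1.36-fold on Sp_TMA and by 1.21-fold and 1.29-fold on Sp_EMA. The other 5 genes passed the test on 1 platform or on neither. A gene was called where its Benjamini-Hochberg adjusted p over all 4854 genes was below 0.05 in limma. On Sp_TMA 2 of the 10 genes rose and 5 fell, where 25.2% of all genes rose and 31.3% fell. On Sp_EMA 2 rose and 5 fell, where 22.7% of all genes rose and 36.2% fell. On both platforms together 2 rose and 3 fell, where 19.8% of all genes rose and 27.0% fell. The median change of the 10 genes was -0.35 on Sp_TMA and -0.41 on Sp_EMA, against -0.05 and -0.07 over all genes. The samples are whole cultures, so fewer cells holding an RNA and less RNA per cell cannot be told apart.

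These genes gave weak signals. By their mean over the 4 arrays of a platform, all 10 lay in the lowest 25% of genes on Sp_TMA and 7 of them in the lowest 10%, and on Sp_EMA 9 and 7 did, with mfm2 the exception. A low signal is no measure of how many RNA molecules a cell holds, because it also depends on the probes. The cultures were close to each other, with r between 0.997 and 0.998 across genes, and the median gap between cultures was between 0.0609 and 0.102 over all genes and between 0.0919 and 0.182 over the 10 genes. The M cell marker list had 7 measured genes and the P cell list 5, and neither list was bright in these h- cultures apart from sxa1. Control means of the M markers lay between 5.49 and 8.71 on Sp_TMA, and between 6.04 and 10.93 on Sp_EMA. Those of the P markers lay between 6.18 and 12.96, and between 6.54 and 13.57, both upper values being sxa1. The lists therefore give no reading of the mating type, and the mating-type genes themselves were not analysed here.

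**Figure D1:**
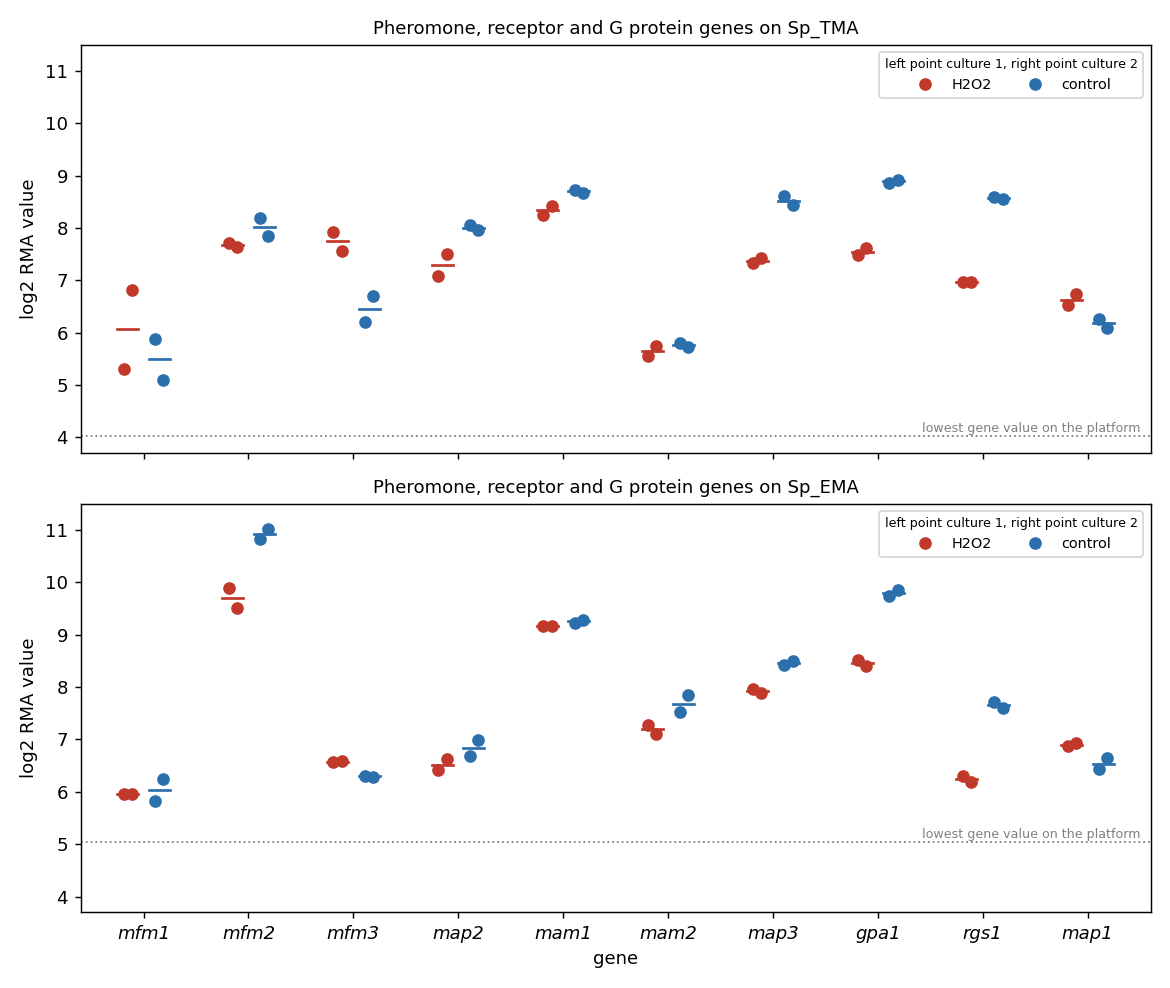
Log2 RMA values (vertical axis) of the 10 genes (horizontal axis) on Sp_TMA (upper panel) and Sp_EMA (lower panel), with H2O2 cells in red left of control cells in blue. Points are cultures, short lines are means of 2, and the dotted line is the lowest gene value on the platform (4.02 and 5.04). The H2O2 points of gpa1, rgs1 and map3 lie below the control points on both platforms, and those of mfm3 and map1 above them.

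The 3 M-factor precursor genes are short, and mfm1 and mfm3 are nearly the same sequence, which limits the probes that can tell them apart. Their coding sequences are shown because this likeness bears on the values of mfm1 and mfm3. They were read from the RefSeq genome (build ASM294v3) with the intron removed. Capitals mark the codons of the 14 residues at the end of the precursor that all 3 share, which take in the mature pheromone.
mfm1: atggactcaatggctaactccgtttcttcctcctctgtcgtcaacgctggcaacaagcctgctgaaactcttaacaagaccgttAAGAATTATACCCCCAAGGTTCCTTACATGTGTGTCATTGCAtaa
mfm2: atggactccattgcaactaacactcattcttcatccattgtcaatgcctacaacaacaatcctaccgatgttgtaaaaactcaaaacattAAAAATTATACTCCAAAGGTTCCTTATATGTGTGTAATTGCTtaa
mfm3: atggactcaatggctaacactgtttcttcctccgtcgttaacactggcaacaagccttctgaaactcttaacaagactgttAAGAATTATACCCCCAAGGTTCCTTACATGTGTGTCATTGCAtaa
The genes lie at chrI:4917015-4917521 (mfm1, forward strand), chrI:2912762-2913250 (mfm2, reverse strand) and chrII:700364-700700 (mfm3, forward strand), and each has 2 coding exons. Aligned coding sequences of mfm1 and mfm3 were identical in 93.0% of columns and shared a run of 48 bases that takes in the capitals. Those of mfm1 and mfm2 were identical in 68.1% and those of mfm2 and mfm3 in 70.6%, with no shared stretch of 25 bases, the length of an Affymetrix probe. Of the 25-base windows of the coding sequence, 81 of 105 in mfm1, 98 of 111 in mfm2 and 78 of 102 in mfm3 occur once in the genome. Windows that span the join of the 2 coding exons need not occur in the unspliced genome. They were not counted apart from repeated windows, so the remaining windows need not all be repeats in the genome. In the spliced coding sequences mfm1 and mfm3 share 24 windows of 25 bases. The authors kept probes with a single match in the genome, so a probe with mismatches to the other copy can still enter a gene's value, and the values of mfm1 and mfm3 are uncertain to that extent.

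Of the M-factor precursor genes, mfm3 rose on both platforms, mfm2 fell on Sp_EMA, and mfm1 passed on neither. On Sp_TMA mfm3 had 7.93 and 7.55 in H2O2 cells, against 6.20 and 6.69 in control cells. On Sp_EMA it had 6.57 and 6.58 in H2O2 cells, against 6.31 and 6.29 in control cells. Both H2O2 arrays lay above both control arrays on each platform. The change was 1.29 (SE 0.19, adjusted p = 0.00179) on Sp_TMA and 0.28 (SE 0.05, adjusted p = 0.00574) on Sp_EMA. A non-coding RNA on the opposite strand, SPNCRNA.1381, covers 100% of the mfm3 coding sequence, and the double-stranded target of Sp_EMA cannot separate the pair. The part of this RNA in the mfm3 values was not tested.

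On Sp_EMA 45.8% of genes lay below mfm2 in control cells, the highest such share of the 10. The gene had 9.89 and 9.51 in H2O2 cells, against 10.83 and 11.03 in control cells on Sp_EMA, a drop by 2.35-fold (change -1.23, SE 0.14, adjusted p = 0.00146). On Sp_TMA it had 7.72 and 7.63 in H2O2 cells, against 8.19 and 7.85 in control cells. Both H2O2 arrays were lower there too, and the change of -0.35 (SE 0.12, adjusted p = 0.0512) missed the threshold. With the cultures paired as a replicate block it passed (adjusted p = 0.0112), in a fit that gave every gene on Sp_TMA the same SE of 0.12. The change was -0.51 without control replicate 2 and -0.18 without control replicate 1.

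The cultures disagreed over mfm1. On Sp_TMA it had 5.30 and 6.82 in H2O2 cells, against 5.88 and 5.10 in control cells, so that it was lower by 0.57 after H2O2 in culture 1 and higher by 1.72 in culture 2. The gap of 1.52 between the H2O2 cultures ranked 3 among the gaps of all 4854 genes. On Sp_EMA, from the same RNA, it had 5.95 and 5.95 in H2O2 cells, against 5.83 and 6.24 in control cells. The groups overlapped on both platforms. The change was 0.57 (SE 0.49, 95% interval -0.61 to 1.76, adjusted p = 0.355) on Sp_TMA and -0.09 (SE 0.14, adjusted p = 0.611) on Sp_EMA. Single arrays decided it: the Sp_TMA change was 1.33 (adjusted p = 0.0345) without H2O2 replicate 1, -0.18 without H2O2 replicate 2, 0.96 without control replicate 1 and 0.19 without control replicate 2, and the Sp_EMA change was -0.29 (adjusted p = 0.0161) without control replicate 1. The replicate block gave an adjusted p of 1.3e-05 on Sp_TMA although the cultures moved in opposite directions. In that fit the prior degrees of freedom were estimated as infinite, so that every gene had the same SE of 0.12.

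P-factor is cut from Map2, whose gene (chrIII:986014-986684, reverse strand, 606 coding bases) repeats a stretch of 30 bases. The 4 copies are shown because repeats limit the probes with a single match. They start at coding bases 142, 244, 346 and 448, and encode the longest run of residues (10) found 4 times in Map2. Over the whole coding sequence, 417 of 582 windows of 25 bases occur once in the genome, and the copies shown are too short to account for all the other windows. Capitals mark the 3 positions at which the copies differ.
copy 1: aatcctgaTagacccaaCttgaaaaagcgC
copy 2: aatcctgaCagacccaaTttgaaaaagcgT
copy 3: aatcctgaCagacccaaCttgaaaaagcgC
copy 4: aatcctgaCagacccaaCttgaaaaagcgC
On Sp_TMA map2 had 7.08 and 7.51 in H2O2 cells, against 8.05 and 7.95 in control cells. It fell by 1.63-fold (change -0.70, SE 0.15, adjusted p = 0.00734). Its Sp_EMA values were 6.41 and 6.63 in H2O2 cells, against 6.69 and 6.99 in control cells. Both H2O2 arrays were the lower on each platform, but the Sp_EMA change of -0.32 (SE 0.12, adjusted p = 0.0768) was not called. It was called with the replicate block (adjusted p = 0.00808) and without control replicate 1 (change -0.47, adjusted p = 0.0227), and it was -0.21 without H2O2 replicate 1 and -0.18 without control replicate 2.

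The exporter and the receptors were measured from longer coding sequences in which every 25-base window occurs once in the genome. The gene of the exporter Mam1 (chrII:2596405-2600486, reverse strand) had 8.25 and 8.42 in H2O2 cells, against 8.72 and 8.67 in control cells on Sp_TMA, a change of -0.36 (SE 0.09, adjusted p = 0.0137). On Sp_EMA, it was at 9.16 and 9.16 in H2O2 cells, against 9.23 and 9.28 in control cells, a change of -0.09 (SE 0.05, adjusted p = 0.171) that was not called. It was therefore called on Sp_TMA only, and that call was lost without H2O2 replicate 1 (change -0.28, adjusted p = 0.056) and without control replicate 1 (change -0.33, adjusted p = 0.079). On the opposite strand the non-coding RNA SPNCRNA.5728 covers 81.6% of its coding sequence, and hbs1, which encodes a ribosome rescue factor and rose by 1.25 on Sp_TMA and 0.99 on Sp_EMA, covers 0.7%. Their part in the mam1 values was not tested.

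The P-factor receptor gene mam2 (chrI:4780688-4781922, forward strand) showed the reverse pattern of calls. The Sp_EMA arrays gave 7.28 and 7.11 in H2O2 cells, against 7.52 and 7.85 in control cells, and fell by 1.41-fold (change -0.50, SE 0.13, adjusted p = 0.0212). That call was lost without H2O2 replicate 1 (change -0.58, adjusted p = 0.054) and without H2O2 replicate 2 (change -0.41, adjusted p = 0.117), and the change was -0.33 without control replicate 2. On Sp_TMA it had 5.55 and 5.75 in H2O2 cells, against 5.80 and 5.72 in control cells. The groups overlapped there, with a change of -0.11 (SE 0.10, 95% interval -0.34 to 0.12, adjusted p = 0.364).

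The M-factor receptor gene map3 (chrI:2833231-2834988, reverse strand) fell on both platforms. On Sp_TMA it had 7.33 and 7.42 in H2O2 cells, against 8.60 and 8.44 in control cells. On Sp_EMA it had 7.96 and 7.88 in H2O2 cells, against 8.42 and 8.50 in control cells. The groups were apart on each platform, and the change was -1.14 (SE 0.09, adjusted p = 1.5e-04) on Sp_TMA and -0.54 (SE 0.06, adjusted p = 0.00116) on Sp_EMA. The gene lies almost wholly inside another: his6, which encodes an enzyme of histidine synthesis on the opposite strand, covers 99.7% of its coding sequence. The his6 values were 9.99 and 10.01 in H2O2 cells, against 10.18 and 10.06 in control cells on Sp_TMA, and 10.90 and 10.84 in H2O2 cells, against 10.95 and 11.04 in control cells on Sp_EMA. The change of his6 was -0.12 on both platforms (adjusted p = 0.244 on Sp_TMA and 0.132 on Sp_EMA). RNA from his6 and map3 cannot be told apart in a double-stranded target, and its part in the map3 values was not tested.

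The G protein gene gpa1 (chrII:2329710-2331890, forward strand, 1 coding exon) fell by more than 2-fold on each platform. On Sp_TMA it had 7.48 and 7.61 in H2O2 cells, against 8.86 and 8.92 in control cells. Its Sp_EMA values were 8.52 and 8.41 in H2O2 cells, against 9.74 and 9.86 in control cells. Neither set of cultures came near the other. The change was -1.34 (SE 0.08, 95% interval -1.55 to -1.14, adjusted p = 6.3e-05) on Sp_TMA, a drop by 2.54-fold, and -1.33 (SE 0.07, 95% interval -1.51 to -1.15, adjusted p = 1.3e-04) on Sp_EMA, a drop by 2.52-fold.

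Rgs1, which shuts Gpa1 off, is encoded at chrI:679803-681890 on the forward strand, and its transcript had the largest drop of the 10 on each platform. On Sp_TMA rgs1 had 6.96 and 6.97 in H2O2 cells, against 8.59 and 8.55 in control cells. On Sp_EMA the values were 6.31 and 6.18 in H2O2 cells, against 7.71 and 7.61 in control cells. The cultures lay close to each other in every group, and the groups were more than 1 log2 unit apart. The change was -1.60 (SE 0.07, adjusted p = 2.2e-05) on Sp_TMA, a drop by 3.04-fold, and -1.42 (SE 0.07, adjusted p = 1.2e-04) on Sp_EMA, a drop by 2.67-fold. Antisense non-coding RNAs cover 33.0% of the gpa1 coding sequence (SPNCRNA.1503) and 21.1% of that of rgs1 (SPNCRNA.675). Their part in these values was not tested.

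The gene of the P-specific transcription factor Map1 (chrI:5292705-5294751, forward strand, 3 coding exons) rose a little on both platforms. On Sp_TMA map1 had 6.52 and 6.73 in H2O2 cells, against 6.26 and 6.09 in control cells. The Sp_EMA arrays gave 6.87 and 6.93 in H2O2 cells, against 6.43 and 6.65 in control cells. The H2O2 arrays were the higher on each platform, with changes of 0.45 (SE 0.11, adjusted p = 0.0126) and 0.36 (SE 0.09, adjusted p = 0.0178). These calls were among the least secure. The Sp_TMA call was lost without H2O2 replicate 2 (change 0.34, adjusted p = 0.062) and without control replicate 2 (0.36, adjusted p = 0.0745), and the Sp_EMA call without H2O2 replicate 1 (0.40, adjusted p = 0.0661) and without H2O2 replicate 2 (0.33, adjusted p = 0.103). The antisense RNAs SPNCRNA.1067 and SPNCRNA.4385 cover 26.1% and 73.9% of its coding sequence. Their part in the map1 values was not tested.

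**Figure D2:**
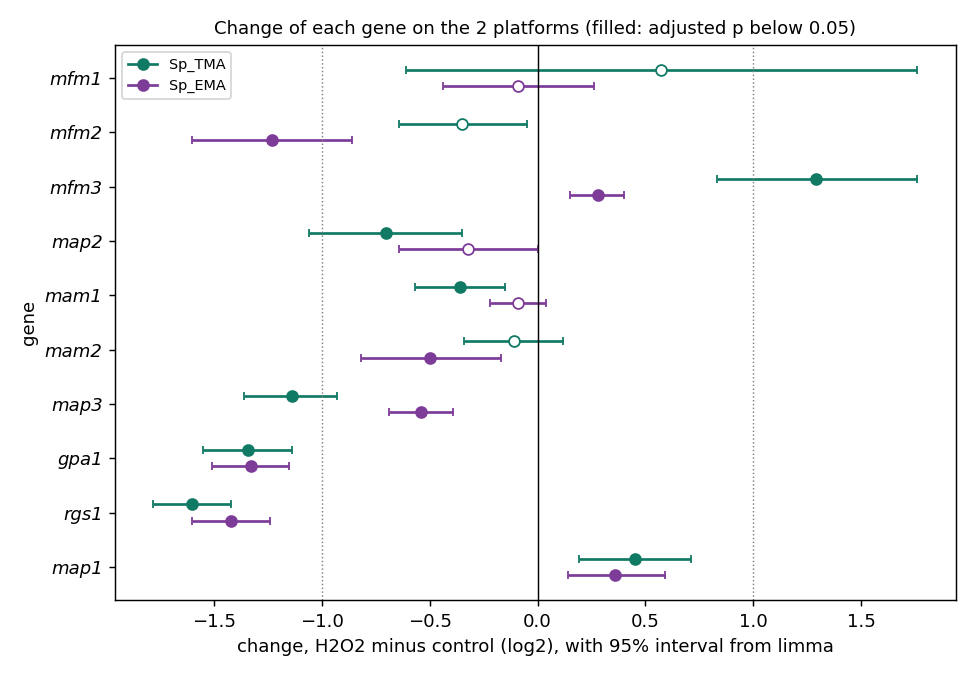
Change of each gene, H2O2 minus control on the log2 scale (horizontal axis), with its 95% interval from limma, on Sp_TMA (green, upper of each pair) and Sp_EMA (purple). Filled points passed an adjusted p below 0.05. Dotted lines mark 2-fold changes. The intervals of gpa1 and rgs1 lie below -1 on both platforms, and that of mfm1 on Sp_TMA runs from -0.61 to 1.76.

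Whether a gene changed by different amounts on the 2 platforms was tested for each gene as the Sp_TMA change minus the Sp_EMA change, over all 8 arrays. Of the 10 genes only map3 passed, with a difference of -0.60 (SE 0.11, 95% interval -0.85 to -0.35, adjusted p = 0.0361), where 1.94% of all genes passed in either direction. The map3 call was lost on leaving out any 1 array other than control replicate 2 of Sp_TMA, with adjusted p between 0.0633 and 0.167, while the difference stayed between -0.65 and -0.52. For mfm2 and mfm3 the differences were larger, at 0.88 (95% interval 0.41 to 1.36, adjusted p = 0.0744) and 1.02 (95% interval 0.48 to 1.55, adjusted p = 0.0698), but so were their errors. The difference for mfm3 passed without control replicate 2 of Sp_TMA (1.26, adjusted p = 0.0277). With the replicate block 4 of the 10 passed, namely map3, mfm2 (adjusted p = 2.7e-04), mfm3 (1.1e-04) and map2 (0.0492). That fit passed many more genes: of all 4854, 492 had a positive and 173 a negative difference. The mam2 difference was 0.39 (adjusted p = 0.252) and that of mam1 was -0.27 (adjusted p = 0.192), so a call on 1 platform only is not a shown difference. The difference for gpa1 was -0.01 (95% interval -0.26 to 0.24) and that for rgs1 was -0.18 (95% interval -0.41 to 0.04). The same RNA went onto both platforms, so the 8 arrays are 4 RNA samples.

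The genes upstream and downstream of the pheromone system were taken from a list of 28 other mating genes, of which 24 had a row. On Sp_TMA 2 of them rose and 15 fell, where 25.2% of all genes rose and 31.3% fell, and their median change was -0.46, against -0.05 over all genes. On Sp_EMA 2 rose and 14 fell, where 22.7% of all genes rose and 36.2% fell, and their median was -0.36, against -0.07 over all genes. On both platforms 2 rose and 14 fell, where 19.8% of all genes rose and 27.0% fell.

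Among 6 genes of pheromone processing and degradation, 3 fell on both platforms, where 27.0% of all genes did. They were krp1, whose endopeptidase cuts the P-factor precursor (-1.24 on Sp_TMA and -1.23 on Sp_EMA), mam4, whose methyltransferase finishes M-factor (-0.78 and -0.99), and sxa2, whose carboxypeptidase destroys P-factor (-0.53 and -0.37).

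Among 11 genes of signalling below the receptor, 8 fell on both platforms and 1 rose, where 27.0% of all genes fell on both and 19.8% rose. The mating transcription factor gene ste11 had the largest drop of the 24. It had 7.59 and 7.85 in H2O2 cells, against 9.88 and 9.85 in control cells on Sp_TMA, and 8.32 and 8.40 in H2O2 cells, against 10.76 and 10.70 in control cells on Sp_EMA. The groups were far apart, with changes of -2.14 (SE 0.10, adjusted p = 2.6e-05) and -2.37 (SE 0.06, adjusted p = 3.0e-05). The MAP kinase gene spk1 fell by 1.17 (Sp_TMA) and 0.99 (Sp_EMA), and gnr1, a G protein beta-like gene, by 0.81 and 1.04. The small GTPase gene ras1 fell by 0.27 and 0.36, its exchange factor gene ste6 by 0.91 and 0.74 and its GTPase activator gene gap1 by 0.67 and 0.78. Genes of the Cdc42 module fell too, scd1 by 0.39 and 0.34 and scd2 by 0.74 and 0.39. The gene that rose was byr2, the first kinase of the cascade, by 0.67 and 0.76, and the remaining 2 of the 11 did not pass on both platforms.

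Among 7 genes of adhesion and cell fusion, 3 fell on both platforms and 1 rose, against the same 27.0% and 19.8% of all genes, and counts this small are not far from those shares. The agglutinin genes mam3 of M cells (-0.85 on Sp_TMA and -0.84 on Sp_EMA) and map4 of P cells (-0.80 and -0.58) fell, as did prm1, which acts in membrane fusion (-0.82 and -0.50). The gene of the fusion formin, fus1, rose. It had 8.38 and 8.47 in H2O2 cells, against 7.22 and 7.42 in control cells on Sp_TMA, and 8.72 and 8.61 in H2O2 cells, against 7.20 and 7.06 in control cells on Sp_EMA, with changes of 1.10 (SE 0.10, adjusted p = 2.4e-04) and 1.53 (SE 0.08, adjusted p = 1.2e-04).

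**Figure D3:**
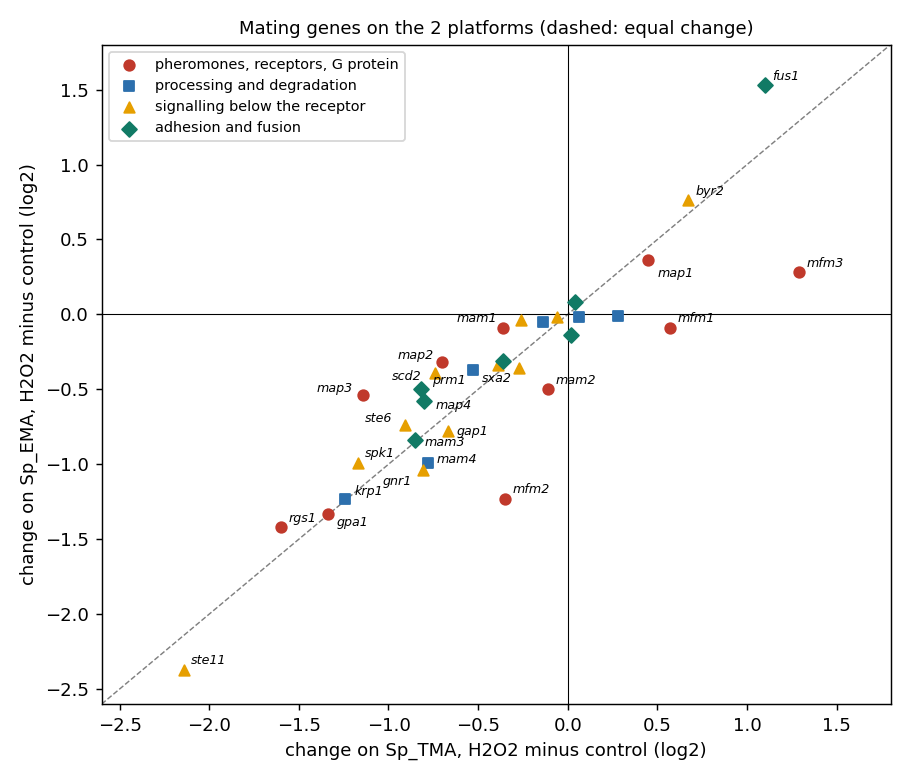
Change on Sp_TMA (horizontal axis) against change on Sp_EMA (vertical axis), both H2O2 minus control on the log2 scale, for the 10 genes (red circles) and the 24 other mating genes in their 3 groups. The dashed line marks equal change. The genes ste11, rgs1, gpa1 and krp1 lie at the lower left, fus1 and byr2 at the upper right, and mfm2 and mfm3 lie well below the line.

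Ste11 binds a short element, the TR box, in promoters of mating genes. Its core TTCTTTG and the longer form TTCTTTGTT were searched on both strands (as CAAAGAA and AACAAAGAA on the other) from 250 bases before to 50 bases after each annotated transcript start, and every match of the longer form is also a match of the core. The core was found in 6 of the 10 genes, mfm1, mfm3, map1, mam1, gpa1 and rgs1, and in 10.0% of 5155 promoters of that length. All matches of map1, mam1 and gpa1 lay after the transcript start, and those of mfm1, mfm3 and rgs1 before it. The longer form was found in 4, mfm1, mfm3, map1 and rgs1, and in 2.0% of the promoters. Of the 24 other mating genes, 9 held the core and 7 the longer form. These counts describe letters in a window and not bound sites. The matches of rgs1, the only one of the 10 with 3, and those of mfm1 and mfm3 are shown with the core in capitals, each read along the strand of its gene.
rgs1, chrI:679605-679633: tgctacctgttTTCTTTGttctgctttct
rgs1, chrI:679664-679692: attgcacaatgTTCTTTGttccgttaaag
rgs1, chrI:679707-679735: catttaatgatTTCTTTGtttaaaagaaa
mfm1, chrI:4916927-4916955: ggtccgaccaaCAAAGAAgtctcagtttt
mfm3, chrII:700191-700219: ggcccaaccaaCAAAGAAgtctcagattt
The rgs1 cores end 181, 122 and 79 bases before the transcript start, that of mfm1 71 bases before it, and that of mfm3 156 bases before its annotated start, which is also its start codon. The mfm1 and mfm3 stretches were identical in 26 of 29 bases. Of the 4 members with the longer form, rgs1 fell on both platforms, mfm3 and map1 rose on both, and mfm1 was called on neither. The map1 match lay after the transcript start. A part of Ste11 in these changes was not tested.

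Genes whose values moved most like those of gpa1, rgs1 and mam2 were found by the Euclidean distance over the 8 arrays, after centring on the control mean of each platform. Nearest to gpa1 were gda1, a Golgi nucleoside-diphosphatase gene, at 0.167 log2 units, SPBC2A9.10 at 0.175 and the protein kinase gene sid1 at 0.188, and rgs1 ranked 47 at 0.428. Nearest to rgs1 were the uncharacterised gene SPAC57A10.07 at 0.251, the transporter gene SPAC3H1.06c at 0.266 and the RNA helicase gene dbp3 at 0.287, and gpa1 ranked 10. Nearest to mam2 were SPCC613.03, annotated as a calcium ion binding protein, at 0.191, the prefoldin subunit gene bob1 at 0.193 and SPCC622.14, a GTPase-activating protein gene, at 0.234. None of these 9 genes is on the list of mating genes used here, and the distances are a description with no test.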

How the data were processed

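RNA from 2 cultures before and after H2O2 was measured on 2 platforms. The authors built custom CDFs from probes of unique sequence that match the genome once, inside exons or ORFs, kept genes with at least 4 probes, and deposited log2 values per gene made with RMA (background adjustment, quantile normalization, median polish; version not given in the sources used here). These log2 values were used as deposited. RMA compresses changes of dim genes, and the number of arrays limits the precision. IDs were matched by systematic name to the RefSeq ASM294v3 annotation (4847 of 4854), from which positions, overlaps and sequences were taken, since the tables hold no coordinates.

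H2O2 and control were compared on each platform with limma 3.58.1 in R 4.3.3 (lmFit, eBayes, no culture term, two-sided, Benjamini-Hochberg over 4854 genes, adjusted p below 0.05), and the platforms' changes with an interaction contrast over 8 arrays. Each fit has 2 residual degrees of freedom per platform, with 4.22 (Sp_TMA) and 3.03 (Sp_EMA) added from all genes. An exact permutation test of 2 against 2 arrays cannot go below p = 0.333 and was not used. The replicate numbers pair the arrays, because the treatment protocol in the labels has each culture sampled before and after H2O2. Across genes the difference between cultures in H2O2 cells correlated with that in control cells at r = -0.0585 on Sp_TMA and 0.253 on Sp_EMA. Alternatives were the replicate block, leaving out each array, an intensity trend in the variance, median centring, quantile normalization of gene values, leaving out the lowest 25% of genes, and a threshold of 0.01. Figures and tables used Python 3.11.15, pandas 2.3.3, numpy 2.4.6, matplotlib 3.10.9 and Biopython 1.88.

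The genes and lists were chosen with earlier results of these data known. All 10 genes are named, as is each gene of the list of other mating genes that passed on both platforms, with the rest as counts, and the 3 nearest genes of gpa1, rgs1 and mam2.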

Additional observations from a re-analysis of the deposited data

Results flagged for a closer look

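The change of map3 differed between the platforms, by -0.60 (Sp_TMA change minus Sp_EMA change, SE 0.11, adjusted p = 0.0361 in limma). It was -1.14 on Sp_TMA and -0.54 on Sp_EMA, lower after H2O2 in both cultures on both. The gene his6, which covers 99.7% of the map3 coding sequence on the opposite strand, changed by -0.12 on each platform, and its part in the difference was not tested. The call was lost with an intensity trend in the variance (adjusted p = 0.0546).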

How the results depend on the processing

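With the lowest 25% of genes left out by their mean over all arrays of a platform, the H2O2 arrays included, none of the 10 genes was left on Sp_TMA and 1 on Sp_EMA, which fell, and of the other mating genes 4 of the 8 left on Sp_TMA and 6 of the 11 left on Sp_EMA were called. On leaving out 1 array in turn, 6 to 7 of the 10 genes were called on Sp_TMA and 5 to 9 on Sp_EMA, and 15 to 16 and 15 to 18 of the other 24. The number of the 10 that differed between platforms was 0 to 2 on leaving out 1 array, 4 with the replicate block and 0 with an intensity trend. The sign turned on leaving out 1 array for mfm1 on Sp_TMA (-0.18 to 1.33) and Sp_EMA (-0.29 to 0.11), and for the platform difference of mfm1 (-0.10 to 1.42), map1 (-0.02 to 0.20) and gpa1 (-0.07 to 0.05). Quantile normalization of the gene values gave 0.02 for mam1 on Sp_EMA. The causes were not tested. The replicate block changed the calls of mfm1 and mfm2 on Sp_TMA and of map2 on Sp_EMA, and of the platform differences of mfm2, mfm3 and map2, and no other call of the 10 genes. Over all 4854 genes the block fit of the platform difference passed 492 with a positive and 173 with a negative difference. On Sp_TMA the block fit gave every gene the same SE of 0.12. At a threshold of 0.01, 5 of the 10 were called on each platform. Shares of all genes called were not counted for these alternatives, apart from the replicate block. Those counts therefore have no background share beside them. The gpa1 and rgs1 calls and directions held under every alternative in which they were tested.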
